A study of Mus musculus with 4 samples.

Results

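The cells described here are cardiac CSF1R-EGFP+ cells that carried transcripts of non-classical monocytes, the blood monocytes with little or no surface Ly6C that crawl along the vessel wall. They were chosen by transcripts, from all 4 libraries, among cells of at least 500 and at most 40000 UMIs (unique molecular identifiers, each a counted transcript) with over 200 genes: a member had at least 1 UMI in 3 or more of the 6 marker genes Ace, Treml4, Cd300e, Adgre4, Ear2 and Pglyrp1, and at most 1 UMI of Ly6c2. The rule found 1711 members among 41533 kept cells, of which 1223 came from the baseline library and 148, 158 and 182 from infarct replicates 1, 2 and 3. They are called non-classical monocyte-like cells, or NC-like cells.

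Non-classical monocytes arise from classical Ly6C-high monocytes, and the nuclear receptor NR4A1 is needed for their development and survival. They use the fractalkine receptor CX3CR1 and the integrin LFA-1, whose alpha chain is encoded by Itgal, to patrol the endothelium. Classical monocytes instead carry CCR2, enter injured myocardium and differentiate into macrophages. In a digested heart, non-classical monocytes may come from the lumen of vessels as well as from the interstitium, and dissociated cells do not show which.

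The baseline library held the pooled hearts of 3 CSF1R-EGFP+ mice without surgery. Each of the 3 infarct libraries held the heart of 1 CSF1R-EGFP+ mouse taken 7 days after ligation of the left coronary artery, with the remote zone cut away before digestion. All mice were 12 to 16 weeks old. EGFP+ Ly6G- cells were sorted as macrophages in both groups and prepared as droplet libraries that count the 3' ends of transcripts. The reporter marks every cell with Csf1r promoter activity, so monocytes fell inside the macrophage sort, and with a single baseline library no difference between baseline and infarct could be tested. Whether vessels were flushed before digestion is not given in the sources used here.

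The libraries held 10144 to 10804 cell barcodes, of which 10117 to 10782 were kept, and 71093963 UMIs at baseline against 88157753 to 97944428 in the infarcts. The median NC-like cell had 4814 UMIs at baseline and 5643, 5755 and 5484.5 UMIs in the infarcts, fewer than the median of all other cells of the same libraries (6643 at baseline, 8495 to 8578 in infarcts). The 4 libraries shared 26 to 34 barcodes per pair, and no pair shared a barcode of an NC-like cell. One transcript set the baseline library apart: Gm42418, a gene that overlaps ribosomal RNA sequence, took 50107 CPM (UMIs per 1000000 UMIs) of the NC-like cells and 47306 CPM of all other cells at baseline, against 12259 ± 2898 CPM and 12801 ± 2340 CPM (mean ± SD, n = 3) in the infarcts.

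The genes of the rule are given as a description, since they chose the cells. Ace, which encodes angiotensin-converting enzyme, lies at chr11:105967945-105989964 (GRCm38, plus strand) and reached 653 CPM in the summed NC-like cells at baseline and 236, 332 and 371 CPM in infarct replicates 1 to 3. Treml4, a TREM-like receptor at chr17:48264295-48275360 on the plus strand, had 243 CPM at baseline and 171, 174 and 217 CPM in infarcts. Cd300e, an activating receptor of the CD300 family at chr11:115051917-115062177 on the minus strand, had 221 CPM and then 123, 155 and 147 CPM. Every infarct value of these 3 genes lay below the baseline value, and for Ace the infarct mean was more than 2-fold lower. Among cells with at least 4 markers and C1q under 0.1% of UMIs the Treml4 log2 ratio of infarct to baseline was 0.05, in place of -0.37, and that of Ace was -0.53.

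Adgre4, an adhesion G-protein-coupled receptor at chr17:55749984-55853662 on the plus strand, had 642 CPM at baseline and 331, 343 and 374 CPM in infarcts. Ear2, a secreted ribonuclease at chr14:44102654-44103534 on the plus strand, had 453 CPM and then 308, 396 and 451 CPM. Its family holds near-identical copies between which reads cannot always be assigned, so its level is uncertain. Pglyrp1, a peptidoglycan-binding antibacterial protein at chr7:18871331-18890459 on the plus strand, had 431 CPM and then 197, 276 and 357 CPM. Infarct replicate 1 was the lowest and infarct replicate 3 the highest of the infarcts for Ace, Treml4, Adgre4, Ear2 and Pglyrp1, whereas for Cd300e infarct replicate 2 was the highest. The log2 ratio of Ear2 to baseline, -0.23, turned to between 0.02 and 0.29 in 4 alternatives, among them the mean of the CPM of each cell (0.09) and at least 4 markers (0.19).

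Ly6c2, which marks classical monocytes, lies at chr15:75108158-75111970 on the minus strand, and reads that it shares with its close copy Ly6c1 may not be counted. It had 11.4 CPM in the NC-like cells at baseline and 14.4, 16.6 and 15.9 CPM in infarcts, against 1274 CPM and 942, 1477 and 1300 CPM in a gate of classical monocytes (at least 2 Ly6c2 UMIs, under 3 of the 6 markers, and C1qa, C1qb and C1qc together under 0.1% of UMIs). In all other cells the 6 markers ranged from 1.49 to 52.6 CPM at baseline and from 1.54 to 18.6 CPM in infarcts.

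**Figure D1:**
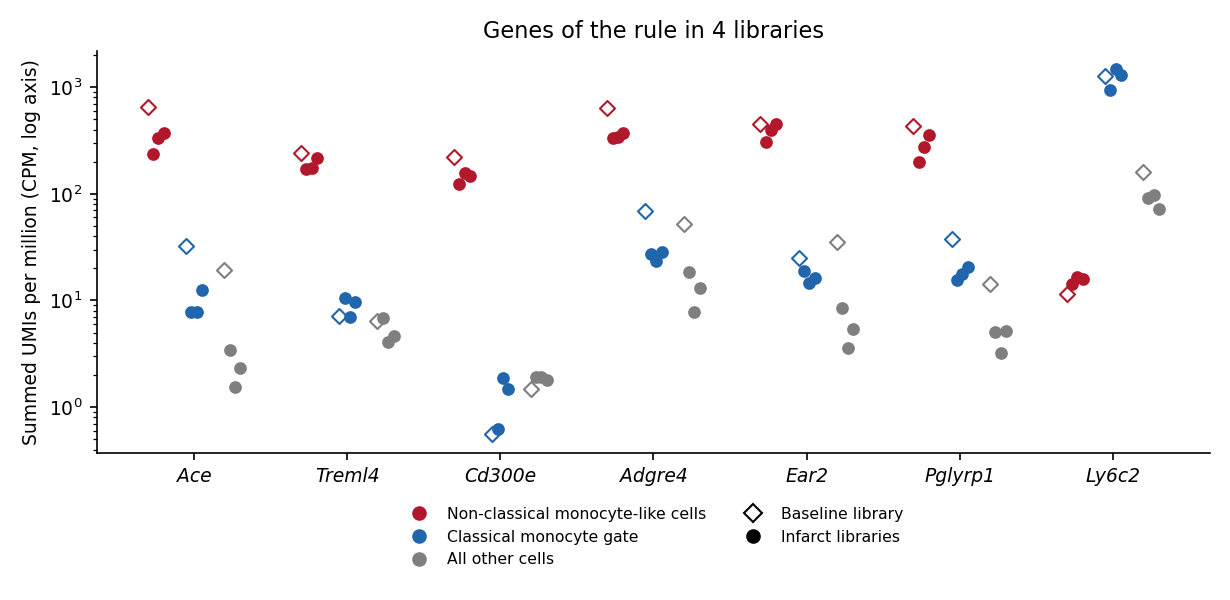
Levels of the 6 rule markers and of Ly6c2, as CPM of the summed UMIs on a log axis, in NC-like cells (red), the classical monocyte gate (blue) and all other cells (grey). Open diamonds stand for the baseline library and filled circles for the 3 infarct libraries, and the red points of the 6 markers lie between 123 and 653 CPM because these genes chose the cells.

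The NC-like cells were not uniform in their markers. At baseline, Adgre4 was found in 95.3% and Ace in 93.9% of them, Ear2 in 81.5%, Pglyrp1 in 77.8%, Treml4 in 70.6% and Cd300e in 56.2%. In infarcts the order of the means was Adgre4 (87.4 ± 1.96%, mean ± SD, n = 3), Ear2 (77.1 ± 6.20%), Ace (74.4 ± 4.79%), Treml4 (68.8 ± 1.38%), Pglyrp1 (63.9 ± 7.05%) and Cd300e (46.8 ± 4.46%). The spreads between hearts of Ear2 and Ace overlapped, as did those of Treml4 and Pglyrp1. Within each infarct library Ear2 exceeded Ace (70.3, 78.5 and 82.4% against 68.9, 77.8 and 76.4%). Treml4 likewise exceeded Pglyrp1 (68.2, 67.7 and 70.3% against 56.1, 65.8 and 69.8%), and neither difference was tested. Ace and Adgre4 were found together in 89.8% of the members at baseline and in 57.4%, 67.7% and 69.8% in infarcts. As background, C1q-rich macrophages (C1q genes at 1% of UMIs or more, a limit set after the data were seen) held an Ace UMI in 2.46% of cells at baseline and in 0.401 to 0.741% in infarcts, at median depths of 6878 UMIs and 8593 to 8898 UMIs. Adgre4 was more frequent in them, in 20.0% at baseline and 3.77 to 6.88% in infarcts. Treml4, Cd300e, Ear2 and Pglyrp1 were in 0.973 to 2.65% at baseline, with infarct means of 0.540 to 2.95%.

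At baseline the number of markers per cell fell into separate groups. Among cells with at most 1 Ly6c2 UMI, 5939 had none of the 6 markers, 1823 had 1 and 295 had 2, and then the counts rose again from 192 cells with 3 markers to 263 with 4, 422 with 5 and 346 with all 6. In infarcts no such second peak stood clear of the rest: infarct replicate 1 had 67, 40, 28 and 13 cells with 3, 4, 5 and 6 markers, infarct replicate 2 had 48, 42, 45 and 23, and infarct replicate 3 had 58, 43, 38 and 43. Cells with exactly 3 markers thus made up 15.7% of the members at baseline and 45.3%, 30.4% and 31.9% in infarcts.

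Genes outside the rule varied along the same scale. Itgal had 120 CPM in baseline cells with 2 markers, 445 CPM in those with 3 and 1027 CPM in those with 6, and in infarcts 69.8 to 98.0 CPM with 2, 211 to 284 CPM with 3 and 788 to 1375 CPM with 6. Nr4a1 went from 216 CPM with 2 markers to 554 CPM with 3 and 946 CPM with 6 at baseline, and infarct replicate 1 had only 179 CPM with 2 and 233 CPM with 3. The C1q genes, which mark macrophages, made up a median 0.224% of UMIs in baseline cells with 2 markers and 0.0252% in those with 3, and 0.341% to 0.560% against 0.0398% to 0.0558% in infarcts. By median C1q the members just inside the rule were therefore closer to the members with 4 or more markers. They had lower Itgal and Nr4a1 than cells with all 6 markers in every library. In infarct replicate 1, 55.2% of 3-marker cells had C1q under 0.1% of UMIs, against 36.6% with 2 markers and 72.5% with 4. Apoe there was 12059 CPM with 3 markers, against 10937 CPM with 2 and 7623 CPM with 4. In the other libraries Apoe was lower with 3 markers than with 2. Part of the NC-like cells still carried macrophage RNA: C1q was under 0.1% of UMIs in 85.0% of them at baseline and in 68.9%, 75.9% and 73.1% in infarcts. Cells among the highest doublet scores made up 13.8% of NC-like cells against 7.43% of the others at baseline, and 12.1% to 14.2% against 8.02% to 8.56% in infarcts, and the part of doublets in the results was not tested beyond the removal of these cells.

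**Figure D2:**
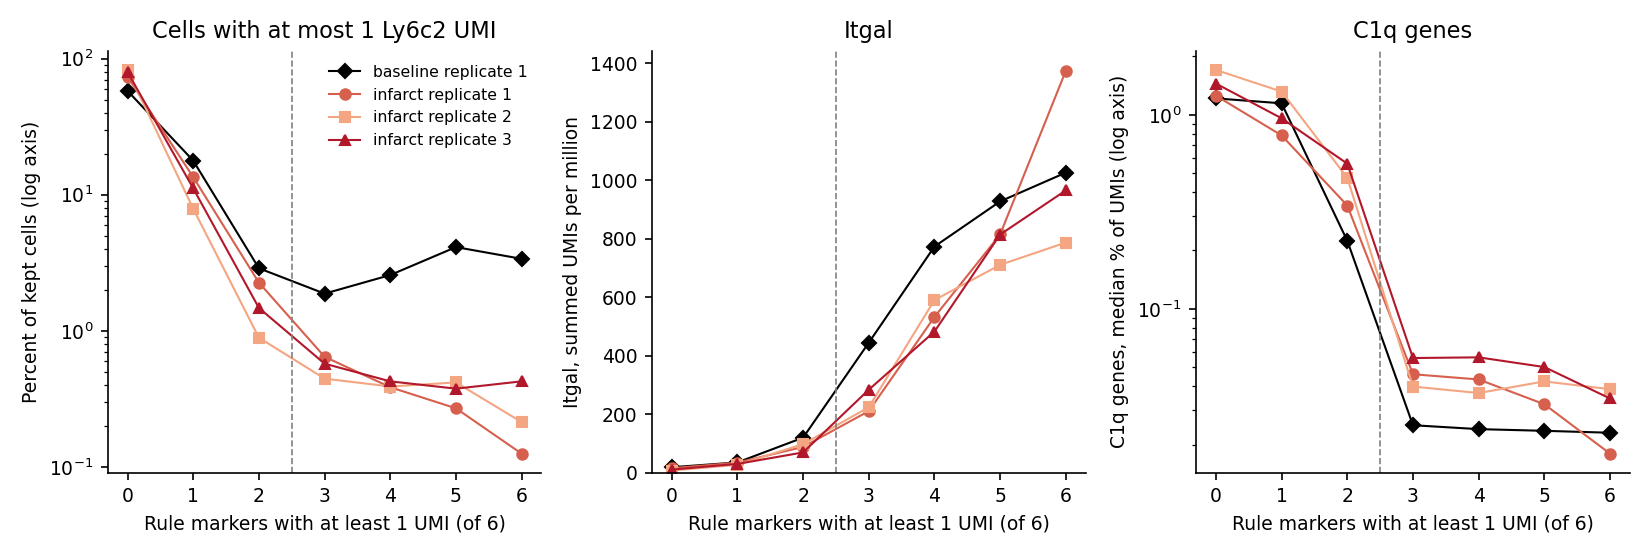
Cells with at most 1 Ly6c2 UMI by the number of rule markers found, in 4 libraries: percent of kept cells (left, log axis), Itgal in the summed cells in CPM (middle), and the median share of C1qa, C1qb and C1qc in a cell's UMIs (right, log axis). The dashed line is the rule at 3 markers. At baseline the share of cells rises again beyond 3 markers, Itgal rises to 1027 CPM at 6 markers, and the C1q share falls from 0.224% at 2 markers to 0.0252% at 3.

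NC-like cells were a larger part of the sorted cells at baseline than in any infarct. They made up 11.9% of kept cells at baseline (exact 95% binomial interval 11.3 to 12.6%) and 1.42% (1.20 to 1.67%), 1.47% (1.25 to 1.71%) and 1.80% (1.55 to 2.08%) in infarct replicates 1, 2 and 3. The infarct mean was 1.56 ± 0.206% (SD, n = 3), and the baseline share was 7.64-fold higher. Intervals cover counting error only, and 1 baseline library allows no test. Shares in a sort give no cell numbers, so fewer NC-like cells and more macrophages cannot be told apart.

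The classical monocyte gate varied less: 6.33% of kept cells at baseline (5.87 to 6.82%) and 5.08%, 4.04% and 3.09% in the infarcts, a mean of 4.07 ± 0.993%. For each cell in that gate there were 1.89 NC-like cells at baseline and 0.280, 0.362 and 0.581 in infarcts. Among C1q-rich macrophages the rule passed 1.14% of cells at baseline and 0.228%, 0.254% and 0.227% in infarcts. Among cells with UMIs of all 3 B cell genes Cd79a, Cd79b and Ms4a1, which should also lack the markers, it passed 11 of 99 at baseline (11.1%, exact 95% binomial interval 5.68 to 19.0%) and 2 of 48, 1 of 23 and 3 of 87 in infarcts (4.17%, 4.35% and 3.45%). These shares lie near the baseline share of NC-like cells and above the infarct shares, with intervals down to 0.509%, 0.110% and 0.717% in infarcts, and the median depth of such B cells was 3935 UMIs at baseline and 10123 to 11126 UMIs in infarcts. When each cell was thinned to 2000 UMIs before the rule was applied, the shares were 10.1% at baseline and 0.857% on average in infarcts, an 11.8-fold difference, and with at least 2 markers in place of 3 they were 14.8% and 3.104%, a 4.78-fold difference.

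**Figure D3:**
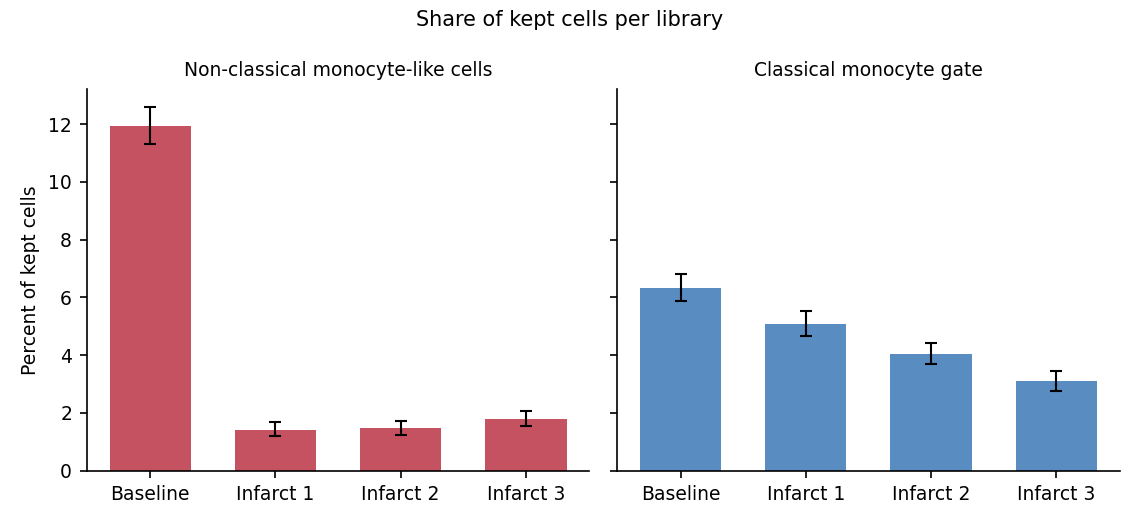
Percent of kept cells in each library that were NC-like (left) or in the classical monocyte gate (right), with exact 95% binomial intervals as error bars. NC-like cells make up 11.9% at baseline and between 1.42% and 1.80% in infarcts, and the classical gate lies between 3.09% and 6.33%.

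The next comparison asked what else distinguished the NC-like cells within the infarcts. UMIs were summed over the cells of each library, and the 3 sums of NC-like cells were tested against the 3 sums of all other cells and, separately, of the classical monocyte gate, with edgeR's quasi-likelihood test and the library as a block. The rule genes were left out, and in the comparison with classical monocytes also the C1q genes. Against all other cells, 1041 of 13092 genes were higher (7.95%) and 985 were lower (7.52%) at a Benjamini-Hochberg adjusted p under 0.01. Against classical monocytes, 659 of 8744 genes were higher (7.54%) and 782 were lower (8.94%). Without the library block, 370 genes were higher and 329 lower against classical monocytes, and without infarct replicate 1 the counts were 397 and 385. The baseline library entered neither test. There, 96.1% of the 659 genes and 96.3% of the 782 genes lay on the same side of its own classical monocyte gate, where 50.8% and 49.2% of all tested genes did.

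Known non-classical genes outside the rule were higher in NC-like cells. Of 18 listed, 17 were higher and none lower against classical monocytes, with a median log2 fold change of 1.69 against 0.01 over all tested genes. Against all other cells 16 were higher and none lower, with a median of 1.33 against -0.07. Spn, which encodes the sialomucin CD43 that is used to sort these cells, had 252, 254 and 279 CPM in the infarcts and 487 CPM at baseline. Its level in the classical gate was 25.5, 16.5 and 32.4 CPM, so the groups did not overlap, and the log2 fold change was 3.36 ± 0.14 (SE, adjusted p = 2.72e-08). Eno3, a muscle-type enolase, had 149, 236 and 226 CPM in NC-like cells against 3.76, 6.22 and 5.53 CPM in the classical gate, a log2 fold change of 5.22 ± 0.13 (adjusted p = 7.15e-10).

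Nr4a1 had 437, 635 and 681 CPM in NC-like cells of the infarcts and 206, 289 and 369 CPM in their classical gates. In every library the NC-like value was the higher one, and the log2 fold change was 0.97 ± 0.07 (adjusted p = 2.60e-06). Nr4a1 was called in every alternative but the fit without the library block, where its adjusted p was 0.0134. Pou2f2, a POU-domain transcription factor, had 732, 730 and 842 CPM against 133, 125 and 232 CPM (log2 fold change 2.22 ± 0.11, adjusted p = 9.52e-08). The gene for the inhibitory adhesion receptor Ceacam1 had 214, 140 and 202 CPM against 41.2, 33.5 and 40.9 CPM. Its log2 fold change was 2.19 ± 0.11 (adjusted p = 6.12e-08).

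3 of the 18 genes were called against 1 comparator and not against the other, and whether the comparators themselves differed was not tested. Cx3cr1 had 577, 495 and 512 CPM in NC-like cells, 165, 150 and 235 CPM in the classical gate and 549, 618 and 642 CPM in all other cells, most of which are macrophages. It was higher than in classical monocytes (log2 fold change 1.49 ± 0.12, adjusted p = 2.78e-06), and against all other cells its log2 fold change of -0.24 ± 0.08 was not called (adjusted p = 0.0262). In 6 of 12 alternatives Cx3cr1 was called lower than in all other cells, with a log2 fold change of -0.40 after thinning (adjusted p = 0.000696) and -0.38 without infarct replicate 1. Csf1r, the receptor behind the reporter, was higher than in classical monocytes by 0.59 ± 0.07 on the log2 scale (adjusted p = 4.80e-05) and differed by -0.09 ± 0.07 from all other cells (adjusted p = 0.396). Cebpb, a C/EBP factor needed for these monocytes, was higher than in all other cells by 1.22 ± 0.08 (adjusted p = 8.54e-11) and was not called against classical monocytes, where the log2 fold change was 0.17 ± 0.05 (adjusted p = 0.0208). It was called higher there in 4 of 13 alternatives, with 0.51 among NC-like cells with C1q under 0.1% of UMIs.

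**Figure D4:**
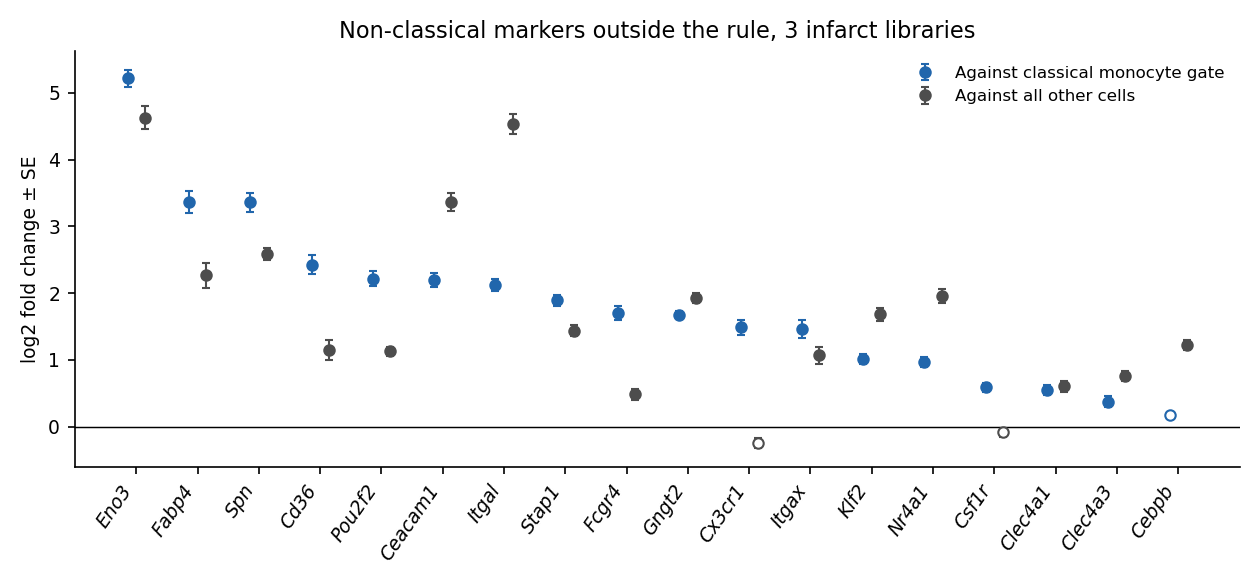
log2 fold changes with standard errors (edgeR, n = 3 infarct libraries) of 18 non-classical genes outside the rule, NC-like cells against the classical monocyte gate (blue) and against all other cells (grey). Filled points passed an adjusted p of 0.01 and open points did not. Eno3 stands highest against classical monocytes at 5.22, and Cebpb, Cx3cr1 and Csf1r each have 1 open point.

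Among 25 transcription factors of monocytes and macrophages, 10 were higher and 5 lower than in classical monocytes (24 tested, median 0.17), and against all other cells 13 were higher and 8 lower (median 0.44). Beside Nr4a1 and Pou2f2, Klf2 and Klf4, Krüppel-like factors of quiescent monocytes and endothelium, were higher in both comparisons. Klf2 had 1012, 1182 and 1040 CPM in NC-like cells against 461, 500 and 578 CPM in the classical gate (log2 fold change 1.01 ± 0.07, adjusted p = 1.69e-06). Tcf7l2, a Wnt effector, had a log2 fold change of 2.37 ± 0.16 against classical monocytes (adjusted p = 8.74e-07).

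Genes of adhesion and patrolling were mostly higher. Of 24 listed, 15 of 23 tested were higher and 2 lower than in classical monocytes (median 0.73), and against all other cells 16 were higher and 6 lower (median 1.01). Itgal had 431, 500 and 565 CPM in NC-like cells, 109, 100 and 118 CPM in classical monocytes and 28.9, 15.6 and 19.9 CPM in all other cells, and no value of one group reached another. Its log2 fold change was 4.53 ± 0.15 against all other cells (adjusted p = 1.10e-14) and 2.12 ± 0.09 against classical monocytes (adjusted p = 2.72e-08). Itgb2, the beta chain that pairs with it, was also higher in both comparisons, by 1.27 ± 0.08 against all other cells (adjusted p = 1.03e-10) and by 0.70 ± 0.07 against classical monocytes (adjusted p = 1.90e-05).

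Itgam, the alpha chain of Mac-1, was higher than in all other cells by 0.46 ± 0.09 (adjusted p = 0.000592), and its 0.27 ± 0.08 against classical monocytes was not called (adjusted p = 0.0304). The call against all other cells was lost with C1q under 0.1% of UMIs (log2 fold change 0.13, adjusted p = 0.374), with at least 4 markers besides (0.19, adjusted p = 0.225), after thinning (0.25, adjusted p = 0.105) and without the library block (adjusted p = 0.123). Itga5, the fibronectin receptor chain that the study followed in infarct macrophages, was a low transcript here: 36.4, 32.4 and 25.03 CPM in NC-like cells of the infarcts and 19.4 CPM at baseline, against 50.02, 43.87 and 43.89 CPM in all other infarct cells. It was lower than in all other cells (log2 fold change -0.61 ± 0.15, adjusted p = 0.00299), and its -0.65 ± 0.16 against classical monocytes was not called (adjusted p = 0.0113). Neither result was firm: with DESeq2 (adjusted p = 0.0237), without the highest doublet scores (0.0330), without the library block (0.0158) or without infarct replicate 3 (0.0441) the first was not called, and the second was called in 3 of 13 alternatives, with an adjusted p of 0.00676 for classical monocytes of at least 4 Ly6c2 UMIs.

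The S1P receptor gene S1pr5, which is known for egress of these monocytes from bone marrow, ranked first against all other cells. It had 46.0, 53.6 and 66.7 CPM in NC-like cells of the infarcts and 106 CPM at baseline, and 0.870, 0.162 and 0.333 CPM in all other infarct cells, with a log2 fold change of 7.09 ± 0.50 (adjusted p = 4.06e-10). Slc12a2, a sodium-potassium-chloride cotransporter, was second with 5.40 ± 0.18 (adjusted p = 1.10e-14) and first against classical monocytes with 5.47 ± 0.20 (adjusted p = 1.68e-08). The other top genes against all other cells were Eno3, Itgal, Trem3, Nxpe4, Ccdc88c, G0s2, Hes1 and Ceacam1, with log2 fold changes from 3.37 to 4.63. Against classical monocytes they were Lilra5, an activating immunoglobulin-like receptor, S1pr5, Eno3, G0s2, Fabp4, Spn, Heg1, Serpinb6a and the tetraspanin gene Cd81, with 3.02 to 5.44.

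At the other end, the 10 genes lowest against all other cells held macrophage chemokines (Ccl12, Ccl8 and Ccl7), matrix genes (Col3a1 and Sparc), the cathepsin gene Ctsk, Spp1, Ms4a14, Il7r and Tanc2, with log2 fold changes from -5.01 to -2.17. Spp1, which encodes osteopontin, had 187, 265 and 226 CPM in NC-like cells against 1362, 1545 and 1062 CPM in all other cells of the infarcts, a log2 fold change of -2.59 ± 0.09 (adjusted p = 1.94e-14). For Ctsk infarct replicate 2 decided the comparator, with 138 CPM in its other cells against 9.61 and 22.5 CPM in the others. The macrophage markers were lower without exception in this test, 9 of 9 tested with a median of -1.56, of which Apoe had 10028, 13658 and 14014 CPM in NC-like cells against 27574, 39827 and 35074 CPM.

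Against classical monocytes the lowest genes included Siglech, Dmkn, Cd7, Lcn2, Mmp8, Ly6d, Mmp19, Timp1 and Ccl7, with log2 fold changes from -7.54 to -2.81. All 7 classical monocyte markers tested were lower, with a median of -1.84. Ccr2 had 1080, 652 and 471 CPM in NC-like cells against 1706, 1582 and 1513 CPM in the classical gate (log2 fold change -1.26 ± 0.14, adjusted p = 3.36e-05), and 384 against 1676 CPM at baseline. Siglech and Ly6d are genes of plasmacytoid dendritic cells, which also carry Ly6c2. In the classical gate 4.55%, 3.44% and 3.51% of the infarct cells held a Siglech UMI. With these cells left out, an alternative chosen after the data were seen, Ly6d had a log2 fold change of 0.54 (adjusted p = 0.280) and 604 genes were higher and 741 lower.

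Interferon-stimulated genes were lower in NC-like cells. Of 20 tested against classical monocytes 17 were lower and none higher, with a median of -1.36, and against all other cells 12 were lower and 2 higher, with a median of -0.96. Isg15, a ubiquitin-like modifier, had 41.2, 85.1 and 55.1 CPM in NC-like cells, 247, 638 and 225 CPM in classical monocytes and 127, 194 and 105 CPM in all other cells, and the groups did not overlap. Its log2 fold change was -2.61 ± 0.15 against classical monocytes (adjusted p = 1.81e-07). At baseline the values were 31.1, 132 and 62.2 CPM in the same order. Infarct replicate 2 was the highest library for Isg15 in all 3 kinds of cell. Ifitm3, an antiviral membrane protein, was called in opposite directions: with 3591, 3204 and 2808 CPM it was higher than in all other cells by 0.94 ± 0.06 (adjusted p = 5.25e-11) and lower than in classical monocytes by 0.67 on the log2 scale (log2 fold change -0.67 ± 0.06, adjusted p = 1.50e-05).

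Inflammatory cytokine and chemokine genes were lower more often than higher, 9 against 3 of 21 tested in the comparison with classical monocytes and 13 against 2 of 24 in that with all other cells. Il1b, the gene for interleukin-1 beta, had 1399, 1971 and 1049 CPM in NC-like cells, between 1580, 2912 and 1438 CPM in classical monocytes and 776, 943 and 646 CPM in all other cells of the same libraries. It was higher than in all other cells by 0.82 ± 0.07 (adjusted p = 6.58e-09) and lower than in classical monocytes, with a log2 fold change of -0.46 ± 0.07 (adjusted p = 0.000360). The second call was lost among NC-like cells with C1q under 0.1% of UMIs (log2 fold change -0.09, adjusted p = 0.283), with at least 4 markers besides (adjusted p = 0.0252) and without the library block (adjusted p = 0.261). Genes of repair, growth factors and matrix were lower against all other cells in 15 of 23 and higher in 2. Of the MHC class II genes, which present antigen to CD4+ T cells, none was higher, 4 of 8 were lower than in all other cells and 2 of 8 than in classical monocytes. The chain gene H2-Ab1 varied between hearts, with 3616, 3115 and 1769 CPM in infarct NC-like cells and 1830 CPM at baseline, so that 2 infarct libraries lay above baseline and infarct replicate 3 below it. It was lower than in all other cells (log2 fold change -0.44 ± 0.09, adjusted p = 0.00142), a call that was lost with DESeq2 (adjusted p = 0.0302), without the library block (0.245) and without infarct replicate 3 (log2 fold change -0.20, adjusted p = 0.0170). Against classical monocytes H2-Ab1 was not called (log2 fold change 0.13, adjusted p = 0.396), but it was higher without infarct replicate 3 (0.34) and lower with C1q under 0.1% of UMIs (-0.26, adjusted p = 0.00221).

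Chemoattractant receptors differed by gene. Ccr1, a receptor for inflammatory chemokines, had 116, 49.9 and 45.9 CPM in NC-like cells against 306, 242 and 173 CPM in classical monocytes (log2 fold change -1.88 ± 0.15, adjusted p = 2.78e-06). Of the Fc receptors, Fcgr4, an activating IgG receptor typical of these monocytes, was the only one of 6 called higher, in both comparisons, with 281, 300 and 210 CPM against 75.9, 103 and 55.3 CPM in classical monocytes (log2 fold change 1.71 ± 0.11, adjusted p = 4.55e-07). Fcgr1, which encodes CD64, was lower in both, with a log2 fold change of -1.16 ± 0.12 against classical monocytes (adjusted p = 3.23e-05).

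Paired receptors of the CD300, TREM, LILR and CLEC4 families, which activate or restrain myeloid cells, were split: 9 of 24 tested were higher and 9 lower than in classical monocytes, and against all other cells 10 were higher and 6 lower. Cd300ld had 347, 310 and 324 CPM in NC-like cells against 111, 104 and 86.6 CPM in classical monocytes and 168, 174 and 170 CPM in all other cells, and the groups did not overlap. The inhibitory receptor gene Cd300a had 383, 320 and 405 CPM against 161, 186 and 254 CPM in classical monocytes. Clec4a1 and Clec4a3, C-type lectins, were higher in both comparisons, of which Clec4a3 against classical monocytes (log2 fold change 0.37) was not called in 4 of 13 alternatives (adjusted p up to 0.0587, without infarct replicate 1), and the C-type lectins Clec4d, Clec4n and Clec4a2 were lower in both.

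Lipid genes were higher than in classical monocytes in 8 of 15 and lower in 3 (median 0.81). Pparg, a lipid-sensing nuclear receptor, had 43.1, 55.5 and 66.7 CPM against 8.37, 5.68 and 15.1 CPM (log2 fold change 2.47 ± 0.22, adjusted p = 7.87e-06), and the scavenger receptor gene Cd36 had 110, 158 and 198 CPM against 21.1, 20.0 and 43.5 CPM (log2 fold change 2.42 ± 0.14, adjusted p = 2.40e-07). Apoe was higher than in classical monocytes by 1.24 ± 0.05 (adjusted p = 1.68e-08), but the classical gate was limited to cells with little C1q and the NC-like cells were not. Among NC-like cells under the same C1q limit its log2 fold change was -0.21 (adjusted p = 0.0655). The same limit turned the growth factor gene Igf1 from 0.99 ± 0.24 (adjusted p = 0.00837) to -2.43 (adjusted p = 1.33e-05) and the chemokine gene Cxcl16 from 0.52 ± 0.10 (adjusted p = 0.00215) to -1.06 (adjusted p = 0.000335).

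Of 15 genes of survival and death, 7 were higher and 3 lower than in classical monocytes (median -0.02). Bcl2, an inhibitor of apoptosis known to prolong the life of these monocytes, had 52.7, 56.4 and 109 CPM in NC-like cells against 15.3, 18.7 and 21.4 CPM (log2 fold change 1.87 ± 0.17, adjusted p = 1.00e-05), and its relatives Bcl2a1a and Bcl2a1d, near-identical copies whose separate counts are uncertain, were also higher. None of the cell cycle genes was called in either direction, of 12 tested against all other cells and 10 against classical monocytes. Of all genes in the first test 7.95% were called up and 7.52% down, and in the second 7.54% and 8.94%. Lists this short could therefore hold no called gene. The cell cycle genes summed to 289, 356 and 76.8 CPM in NC-like cells of infarct replicates 1, 2 and 3, so their level also varied between hearts.

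Infarct and baseline NC-like cells were compared without a test. A gene was counted when the infarct mean differed at least 2-fold from baseline (1 CPM added to both), all 3 infarct libraries lay on one side of it and the higher level was at least 50 CPM. Of 3530 genes at that level, 64 were higher (1.81%) and 88 lower (2.49%), and the median log2 ratio was -0.10. TMM scaling, which moved this median to 0.00, gave 86 higher and 56 lower, so that higher genes were 60.6% of the counted genes against 42.1% with CPM. All of the 64 and 88 genes lay outside the baseline's counting interval in every infarct library, but they had been chosen for lying away from baseline. The interval covers neither the counting error of the infarcts nor differences between hearts. 31 of the 64 were also at least 2-fold higher in all other cells of the infarcts and 46 were lower in the NC-like cells than in the other cells of every infarct, while 56 of the 88 were also at least 2-fold lower in other cells. Levels above the other cells in every infarct were found for 4 of the 64 and 55 of the 88. The same shares over all 3530 genes were not worked out, so these counts have no background to be set against. 31 higher and 21 lower genes met the 2-fold criterion under all 7 alternatives of scaling, depth and definition of the members.

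Of the 18 non-classical genes outside the rule, 1 was counted, and it was lower. Cd36 had 366 CPM at baseline (exact Poisson 95% interval 352 to 380 CPM) and 110, 158 and 198 CPM in infarcts, a log2 ratio of -1.23, and in all other cells its log2 ratio was -2.31. Spn had a log2 ratio of -0.89, Itgal of -0.74 and Nr4a1 of -0.42, with all 3 infarct libraries below baseline for each. These pooled values hold a larger part of 3-marker cells in infarcts, and what this contributed to them was not tested. Among cells with all 6 markers infarct replicate 1 lay above baseline for the 3 genes (Spn 736 against 650 CPM, Itgal 1375 against 1027 CPM, Nr4a1 1026 against 946 CPM), whereas infarct replicates 2 and 3 lay below it. That group held only 13 cells in infarct replicate 1, with 38 Spn, 71 Itgal and 53 Nr4a1 UMIs. At 5 markers Nr4a1 lay above baseline in every infarct (829, 989 and 1071 against 811 CPM), and Spn and Itgal lay below it. At 3 and at 4 markers all 3 genes lay below baseline in every infarct. In NC-like cells with at least 4 markers and C1q under 0.1% of UMIs the log2 ratio of Nr4a1 was -0.02. Over all alternatives the log2 ratio lay between -0.94 and -0.51 for Spn and between -0.84 and -0.30 for Itgal. For Nr4a1 it lay between -0.55 and -0.02. The list's median log2 ratio was -0.49, against -0.10 over all 3530 genes. Itga4, which encodes the alpha chain of VLA-4, had 1031 CPM at baseline and 514, 392 and 609 CPM in infarcts, a log2 ratio of -1.03. Among NC-like cells with at least 4 markers and little C1q the log2 ratio of Cd36 was -0.73, that of Itga4 -0.55 and that of Ace -0.53, all under the 2-fold limit.

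Genes of infarct macrophages were higher in infarct NC-like cells. Saa3, an acute-phase protein, had 2.64 CPM at baseline and 789, 251 and 600 CPM in infarcts, and Arg1, the arginase of reparative macrophages, had 0.416 CPM and then 199, 118 and 149 CPM. They had the highest log2 ratios of the counted genes, 7.23 and 6.79, and ratios of 6.32 and 6.08 in all other cells, where infarct replicate 1 had 1323 CPM of Saa3 and infarct replicate 2 had 62.1 CPM. The others of the 10 highest were Mmp14, Ms4a7, Ccl8, Vcan, Ifitm1, Cd72, Fn1 and Spp1, with log2 ratios from 2.59 to 3.29. Of 5 reparative macrophage markers at 50 CPM 4 were higher, among them Spp1 (36.8 CPM, then 187, 265 and 226 CPM) and Ctsd, the lysosomal protease cathepsin D (199 CPM, then 884, 968 and 1139 CPM), and both stayed below the level in other cells of each infarct.

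No transcription factor of 19 at 50 CPM, no gene of survival of 12 and no MHC class II gene of 7 was counted in either direction. Over all 3530 genes only 1.81% were counted as higher and 2.49% as lower, so lists of this size could well hold none. Of 12 genes of repair, growth factors and matrix 6 were higher and none lower, with a median log2 ratio of 1.20.

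Resident macrophage genes were lower. All 5 resident cardiac macrophage markers at 50 CPM were counted as lower, with a median log2 ratio of -3.01. Retnla, a secreted protein of alternatively activated macrophages, had 412 CPM at baseline and 9.58, 4.62 and 4.17 CPM in infarcts, and the haemoglobin scavenger receptor gene Cd163 had 111 CPM and then 1.92, 1.85 and 5.01 CPM. In all other cells their log2 ratios were -5.22 and -5.00, close to the -5.86 and -4.84 of the NC-like cells. The others of the 10 lowest were Mgl2, Lyve1, Lyz1, Cbr2, the histone gene Hist1h1e, Gm42418, Zbtb16 and Ddit4, with log2 ratios from -3.49 to -1.95.

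Macrophage RNA in the NC-like cells also differed between baseline and infarct. The summed level of 9 macrophage markers was 7648 CPM at baseline and 15112, 20246 and 19196 CPM in infarct NC-like cells, against 24383 CPM and 41868, 59306 and 52759 CPM in all other cells. When NC-like cells were limited to those with C1q under 0.1% of UMIs, 53 of the 64 higher genes and 44 of the 88 lower genes still met the 2-fold criterion. The log2 ratios of Saa3 and Arg1 were then 4.80 and 3.04, and that of Spp1 was 4.40. Those of the resident macrophage genes Retnla and Cd163 were -7.20 and -4.60. The part of macrophage RNA in these differences was not tested.

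4 of the 64 higher genes stood above the level of all other cells in every infarct: Fn1, Vcan, Hp and F10, of which Hp and F10 were chosen after their values were seen. Vcan, a matrix proteoglycan and classical monocyte marker, had 11.4 CPM at baseline and 119, 70.3 and 69.2 CPM in infarcts, a log2 ratio of 2.81, against -0.04 in all other cells. Hp, the haptoglobin gene of monocytes and neutrophils, had 116 CPM and then 330, 230 and 321 CPM, a log2 ratio of 1.33 against -0.30. Over all alternatives the log2 ratio lay between 2.51 and 3.24 for Vcan and between 1.24 and 1.59 for Hp. Fn1, which encodes fibronectin, had 185 CPM and then 1821, 767 and 876 CPM, a log2 ratio of 2.64 against 0.69, and between 1.86 and 2.86 over the alternatives. Under the 7 alternatives of scaling, depth and definition of the members, Vcan and Hp met the 2-fold criterion in all. Fn1 met it in 6 and F10 in 4.

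Of these genes Vcan, Hp and Fn1 are abundant in classical monocytes. Vcan had 386 CPM there at baseline and 678, 500 and 366 CPM in infarcts, and Hp 583 CPM and then 652, 549 and 749 CPM. Fn1 had 2454 CPM in the classical gate at baseline and a mean of 1310 CPM in infarcts. Its log2 ratio there was -0.91, opposite in direction to that in NC-like cells. Ccr2 also lay nearer to the classical level in infarct NC-like cells, with 384 CPM at baseline and 1080, 652 and 471 CPM in infarcts, a log2 ratio of 0.93 that is below the 2-fold limit. Ccr2 depended on the number of markers found: cells with 3 markers had 966 CPM at baseline and 1316, 966 and 754 CPM in infarcts, and cells with 6 had 141 CPM and then 194, 185 and 109 CPM. At 3 and at 6 markers the infarcts lay on both sides of baseline, and at 4 and 5 markers all of them lay above it (1089, 699 and 423 against 363 CPM at 4). The libraries differed in the part of 3-marker cells, and what this contributed to the pooled values was not tested. Infarct replicate 1, in which 45.3% of the NC-like cells had exactly 3 markers, was the highest library for Vcan, Fn1, Hp, Ccr2 and Ccr1. Infarct replicates 2 and 3, with 30.4% and 31.9%, did not follow that order for Ccr2. With at least 4 markers the log2 ratio of Vcan was 2.95. Ccr1 had 14.8 CPM at baseline and 116, 49.9 and 45.9 CPM in infarcts, with a log2 ratio of 2.17 that was 0.57 in all other cells. Of 9 chemoattractant receptors at 50 CPM, 3 were counted as higher, among them Ccr1 and C3ar1, and none as lower, with a median log2 ratio of 0.93. The pattern-recognition coreceptor gene Cd14 had 194 CPM and then 431, 478 and 488 CPM, a log2 ratio of 1.26 against 0.26. Unlike Vcan, Hp and Fn1, the genes Ccr1, C3ar1 and Cd14 stayed below the level of all other cells in every infarct. Ccr1 was called lower than in all other cells, a call kept in 7 of 12 alternatives.

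**Figure D5:**
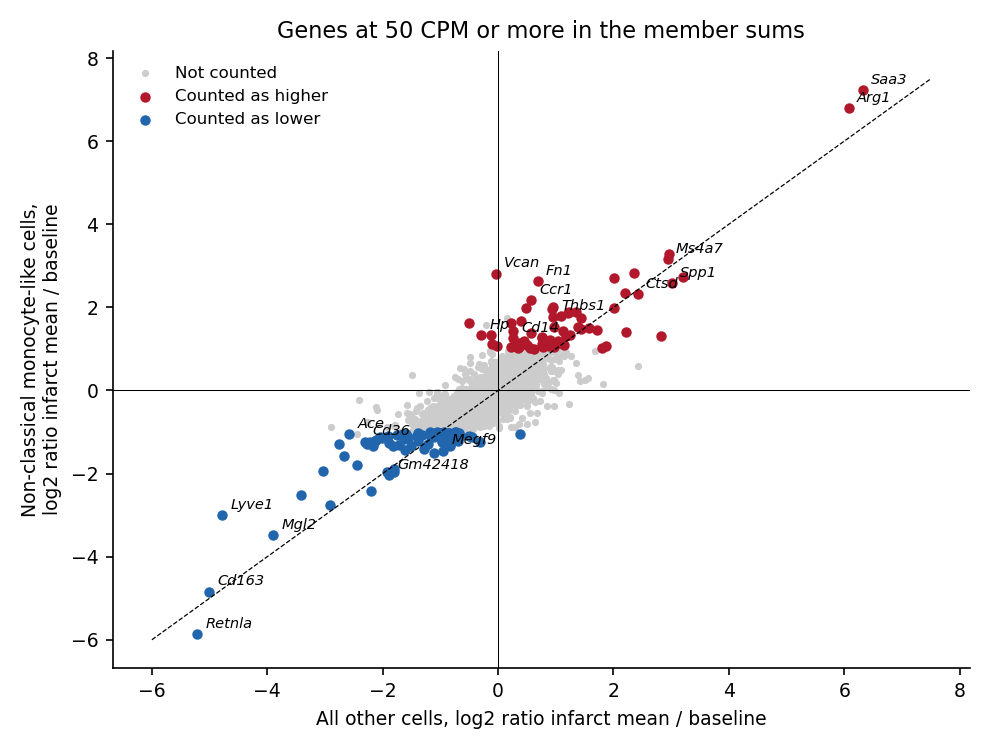
log2 ratio of the infarct mean to baseline in NC-like cells (vertical) against the same ratio in all other cells (horizontal), for genes at 50 CPM or more, with red and blue points for genes counted as higher and lower and a dashed line of equal ratios. Sex-linked genes are not drawn. Saa3 and Arg1 at the top and Retnla and Cd163 at the bottom lie near the line, and Vcan, Fn1 and Hp lie above it.

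Markers of other cells that the sort or the rule could have admitted differed by kind. The 6 T cell markers summed to at most 0.925 CPM in any library, and Trac, Trbc2, Cd3g and Lck were at 0. The 6 eosinophil markers summed to 1.25 to 5.01 CPM, with Epx, Prg2, Il5ra and Ear6 at 0, and the 7 NK cell markers to 7.66 to 41.7 CPM, with Ncr1, Nkg7, Gzma and Prf1 at 0. The 6 B cell markers summed to 71.9 CPM at baseline and 44.1, 38.8 and 75.1 CPM in infarcts, near the 82.9 CPM and 43.8, 43.3 and 67.9 CPM of all other cells. The 6 fibroblast markers summed to 76.5 CPM at baseline and 113, 123 and 103 CPM in infarcts, against 157 CPM and 432, 242 and 247 CPM in all other cells. The 8 endothelial markers summed to 110 CPM at baseline, of which Flt1 had 71.9 CPM, and to 25.9, 59.2 and 50.9 CPM in infarcts, above the 81.6 CPM and 15.2, 12.4 and 12.5 CPM of all other cells in every library. Flt1 (log2 fold change 2.65 ± 0.36, adjusted p = 7.04e-06) and Cldn5 (3.48 ± 0.77, adjusted p = 0.00158) were called higher than in all other cells, and none of the 8 was lower, with a median of 1.66. Cldn5 was not called without infarct replicate 2 (log2 fold change 2.19, adjusted p = 0.311). The part of endothelial RNA in other results was not tested. Neutrophil RNA set 1 library apart: 8 markers summed to 637 CPM in NC-like cells of infarct replicate 3 against 166 and 61.0 CPM in the other infarcts and 137 CPM at baseline, and against 235 CPM in all other cells of that library, with S100a8 at 233 CPM against 35.4 and 1.85 CPM, and Ly6g at 0 throughout. Without infarct replicate 3, 83 genes were counted as higher and 135 as lower than baseline.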

How the data were processed

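Cells sorted from mouse hearts were profiled by droplet 3' RNA sequencing. The authors aligned the reads to mm10 with Cell Ranger (version 3.1.0 per the file headers, 3.0.1 per the submitters' processing notes) and deposited filtered matrices of UMI counts per gene and cell, 1 per library, with no cell annotation and no sample left out here. Mitochondrial genes were left out of all sums, cells were thinned to 2000 or 4000 UMIs only in the alternatives, and no doublets were removed before the tests. Scores of simulated doublets (scanpy 1.11.5) marked the highest 8 cells per 1000 for every 1000 cells recovered, which were removed in an alternative, because the automatic threshold marked almost no cell in the infarcts.

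The members and gene lists were chosen with earlier results of these data known, so no list is independent support. UMI counts were summed per library and compared among the 3 infarct libraries with edgeR 4.0.16 (quasi-likelihood test, TMM, genes kept by filterByExpr, library as block, R 4.3.3), and adjusted by Benjamini-Hochberg at 0.01. The block is the heart: both sums of a pair come from 1 heart. Infarct and baseline were compared as levels in CPM (UMIs per 1000000 UMIs of the summed cells, with 1 CPM added for log2 ratios), with no test. All genes called or counted were listed, and the text names the 10 genes farthest in each direction of each comparison and members of the fixed lists, apart from those said to be chosen later. Sex-linked genes were not ranked. Some genes that the rule would name are not reported here. Intervals are exact binomial or exact Poisson at 95% and cover counting error only. In simulated data, 70.7% of genes changed 4-fold were recovered against all other cells and 99.0% against classical monocytes. For genes changed 2-fold the recovery was 54.5% and 74.5%. The simulated sums were drawn around a single profile, with no effect shared by sums of the same heart. Gene positions are those of GRCm38.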

Additional observations from a re-analysis of the deposited data

Results flagged for a closer look

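Of the genes called in infarcts, 1007 of 1041 and 964 of 985 (against all other cells) and 633 of 659 and 753 of 782 (against classical monocytes) lay on the same side in the single baseline library, and the others did not. Over all tested genes 36.8% and 63.1% lay on those sides against all other cells, and 50.8% and 49.2% against classical monocytes. Among the genes named here Ctsk and Il1b did not keep their side at baseline, and these differences were not tested. Ctsk was lower in NC-like cells than in all other cells of the 3 infarct libraries and higher at baseline, with a baseline log2 ratio of 1.41, where both levels were low (6.25 and 1.72 CPM).

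Against classical monocytes, Il1b was lower in NC-like cells of every infarct library and higher at baseline, with a baseline log2 ratio of 0.20 (913 CPM against 795 CPM).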

How the results depend on the processing

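One baseline library, 3 infarct hearts and 148 to 182 NC-like cells per infarct limit these results; low genes rest on few UMIs, and condition and library cannot be told apart between baseline and infarct. The baseline share stayed above every infarct share in all alternatives run. Baseline and mean infarct shares were 10.1% and 0.857% with cells thinned to 2000 UMIs, 10.3% and 0.899% at 4000 UMIs, 14.8% and 3.104% with at least 2 markers, 10.1% and 1.01% with at least 4, 13.8% and 1.81% with no limit on Ly6c2, 10.4% and 1.28% without Ace, 10.3% and 1.13% without Adgre4, 10.8% and 1.26% without Ear2, 10.1% and 1.14% with C1q under 0.1% of UMIs, and 8.66% and 0.807% with at least 4 markers and C1q under 0.1%. The baseline share was 11.1% with no Ly6c2 UMI, 12.6% in cells of at least 1000 UMIs, 13.4% without cells over 10% mitochondrial UMIs and 11.2% without the highest doublet scores, and the infarct share was 1.26% without Treml4 and 1.44 to 1.63% without 1 infarct replicate.

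Without the replicate block, 567 genes were lower than in all other cells, and 370 were higher and 329 lower than in classical monocytes. Against classical monocytes the DESeq2 Wald test called 378 higher and 348 lower, thinning to 2000 UMIs 472 lower, and no filter on low counts 1244 lower. Leaving out 1 infarct replicate gave 397 to 802 higher and 385 to 929 lower against classical monocytes, and 837 to 1132 higher and 816 to 1092 lower against all other cells.

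Against classical monocytes 6 of the genes named turned. Cxcl16 had a log2 fold change of -0.18 when thinned, -0.38 without the highest doublet scores, -1.06 with C1q under 0.1% and -1.72 with at least 4 markers besides, and Igf1 of -0.26, -2.43 and -3.44 under the last 3. Apoe had -0.21 and -0.34 under the last 2, Itgam -0.00036 with C1q under 0.1%, H2-Ab1 -0.25 when thinned, -0.26 with C1q under 0.1% and -0.90 with at least 4 markers besides, and Ly6d 0.54 against classical monocytes with no Siglech UMI. Both choices of at least 4 markers with C1q under 0.1% and of no Siglech UMI were made after the data were seen.

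For infarct against baseline, lower genes numbered 56 with TMM scaling, 51 with the mean of the CPM of each cell and 54 with C1q under 0.1%. At least 4 markers gave 40 higher and 54 lower, with C1q under 0.1% besides 38 and 40, and no filter on level 315 and 564. Leaving out 1 infarct replicate gave 63 to 83 higher and 76 to 135 lower. Ear2 (main log2 ratio -0.23) turned in 4 alternatives, up to 0.29, and Treml4 (-0.37) in 1, to 0.05. The causes were not tested.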
